A study of Mus musculus with 6 samples.

Results

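The 9 genes described here encode the core machinery that builds fatty acids in the cytosol of liver cells. They were chosen by gene symbol from the 35976 entries of a count table of mouse liver RNA, and all 9 symbols (Slc25a1, Acly, Acss2, Acaca, Acacb, Mid1ip1, Thrsp, Fasn and Me1) were found there. Polyadenylated RNA was sequenced from livers of male mice of the genotypes IRE1fl and IRE1PKO, with 3 libraries of each. The treatment label of all mice is HFD, taken to mean a high-fat diet, and livers were taken 4 hours into feeding that followed a fast of 16 hours. IRE1 is a stress sensor of the endoplasmic reticulum, and fl is the usual mark of a gene flanked by recombination sites. What the P of PKO stands for is not written in the labels, and no recombinase or promoter that drives it is named in them. The series title speaks of the pituitary and the liver.

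In fatty acid synthesis, mitochondrial citrate is carried to the cytosol and cut into acetyl-CoA, which acetyl-CoA carboxylase turns into malonyl-CoA. Fatty acid synthase then joins malonyl-CoA units into palmitate with electrons from NADPH. In liver the pathway is known to be turned on by feeding, insulin and carbohydrate through the transcription factors SREBP1c, LXR and ChREBP, and to be restrained in fasting.

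Library totals ran from 35776219 to 39277435 counts. Values are CPM, counts relative to the scaled library total, and changes are log2 fold changes of IRE1PKO over IRE1fl with their standard error (SE), from the quasi-likelihood test of edgeR, with p adjusted by Benjamini-Hochberg over 14954 tested genes and a threshold of 0.05. Separate animals are not stated for the libraries, so p-values speak only to the spread among these 6, which may be technical. Ern1, the gene of IRE1, stood at 49.3 to 61.2 CPM in IRE1fl livers and 36.6 to 45.7 CPM in IRE1PKO livers, and it checks the labels only if the liver is where the gene was deleted. The summed level of 10 hepatocyte markers was 94449 to 111042 CPM in IRE1fl and 87588 to 104911 CPM in IRE1PKO. Most of it was Alb, with 56457 to 70461 CPM in IRE1fl and 57901 to 71779 CPM in IRE1PKO. Of the 10 markers, 5 were lower in every IRE1PKO library than in any IRE1fl library and 0 were higher. Among all tested genes 15.0% and 16.0% were. Levels in bulk tissue do not separate fewer cells of a type from less RNA per cell.

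Most core genes had higher levels in IRE1PKO livers. Their summed level was 2014, 3026 and 2096 CPM in IRE1fl against 5259, 4723 and 4273 CPM in IRE1PKO, so every IRE1PKO library lay above every IRE1fl library. Fasn, Acaca, Acacb, Me1 and Acly rose, by log2 values of 0.82 to 1.92. Slc25a1, Acss2 and Thrsp had higher means in IRE1PKO but overlapping groups and did not pass, and Mid1ip1 was the member with a lower mean. Of the 9 genes, 5 passed as higher, where 5.68% of all tested genes did, and none passed as lower, where 3.86% did (9.54% in either direction). At an unadjusted p under 0.05 edgeR counted 5 higher and 1 lower, as did DESeq2 after adjustment, while limma-voom counted 5 and 0. Among all 14954 tested genes, the unadjusted edgeR numbers were 2021 higher and 1720 lower. DESeq2 counted 1139 and 858 among 15268 genes, and limma-voom counted 801 and 578 among 14954. All IRE1PKO libraries lay above all IRE1fl libraries for 5 genes and below them for 1, beside 16.0% and 15.0% of all tested genes (31.0% together). The median change of the 9 genes was 0.95, against -0.0014 over all tested genes.

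**Figure D1:**
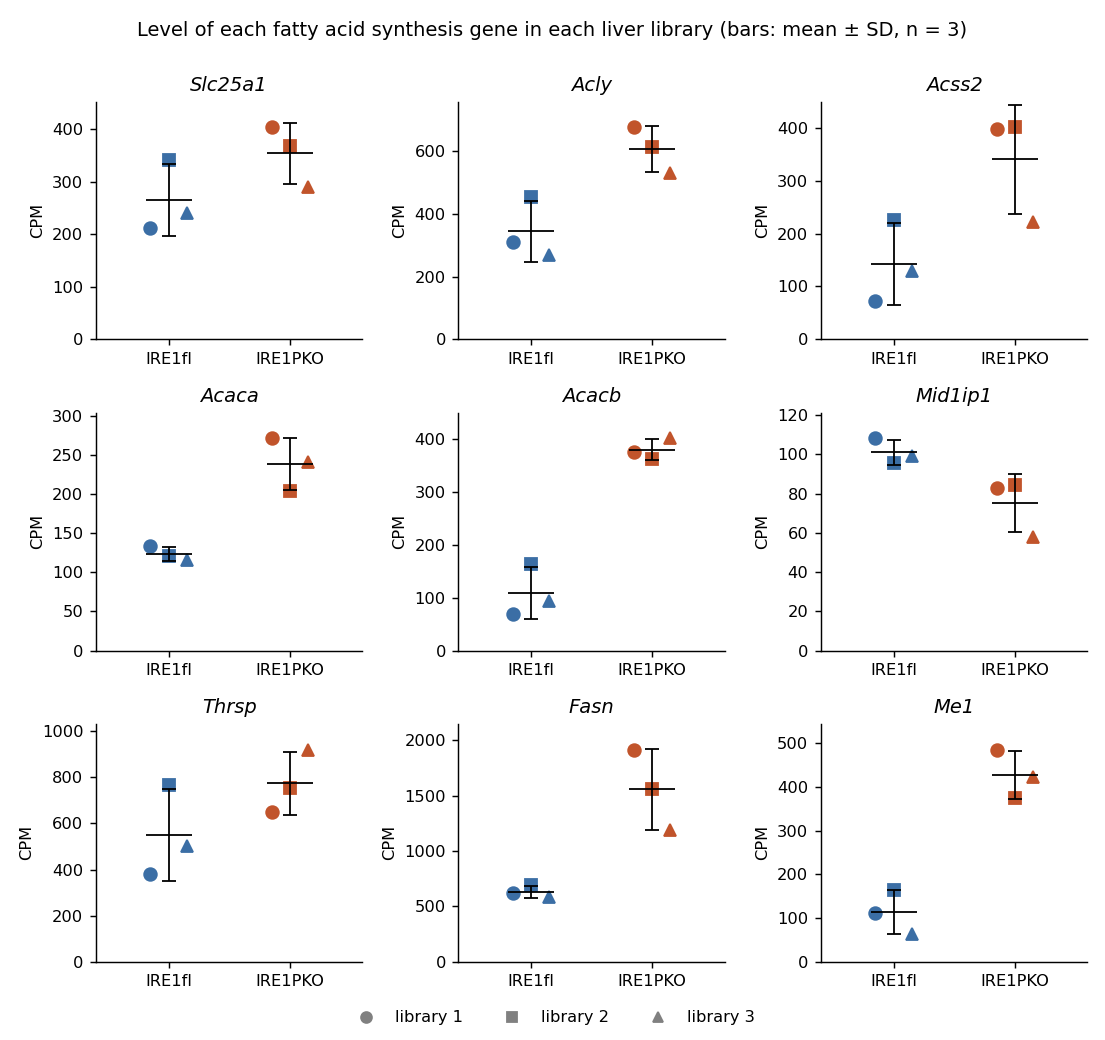
CPM (vertical axes, starting at 0) of the 9 genes in each of 3 IRE1fl (blue) and 3 IRE1PKO (orange) libraries, with symbols for the library number and bars for mean ± SD. Fasn, Acaca, Acacb, Me1 and Acly have no overlap between genotypes, Mid1ip1 lies lower in IRE1PKO, and IRE1fl 2 is the highest IRE1fl library for 7 of the 9 genes.

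Fasn (chromosome 11, 120805846 to 120824547, minus strand) encodes fatty acid synthase, the single large enzyme that assembles palmitate. The Fasn level was 618, 692 and 583 CPM in IRE1fl against 1916, 1561 and 1189.85 CPM in IRE1PKO. The IRE1fl libraries lay close together, and the lowest IRE1PKO library was 1.72 times the highest IRE1fl library. Fasn rose from 631 ± 55.8 to 1556 ± 363 CPM (SD, n = 3 each), 2.47-fold, with a log2 fold change of 1.30 (SE 0.16, edgeR adjusted p = 0.00134). When single libraries were omitted the log2 value was 1.13 to 1.46 and Fasn passed each time (edgeR adjusted p up to 0.0106).

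Acaca and Acacb encode the acetyl-CoA carboxylases that make malonyl-CoA. The product of Acaca works in the cytosol and feeds fatty acid synthase, while that of Acacb sits at the mitochondrial surface, where malonyl-CoA holds back entry of fatty acids for oxidation. Acaca (chromosome 11, 84129672 to 84401651, plus strand) had 134, 121 and 116 CPM in IRE1fl and 271, 204 and 240.4 CPM in IRE1PKO. Acaca rose from 124 ± 9.21 to 238 ± 33.7 CPM, with a log2 fold change of 0.95 (SE 0.12, edgeR adjusted p = 0.000891), and it passed without each library in turn (up to 0.00635). Acacb (chromosome 5, 114146535 to 114250761, plus strand) had 68.5, 164 and 92.9 CPM in IRE1fl and 376, 362 and 401 CPM in IRE1PKO. The IRE1PKO libraries were nearly level, with a highest-to-lowest ratio of 1.11, while the IRE1fl libraries spread over a ratio of 2.39. Acacb rose from 108 ± 49.5 to 379 ± 19.7 CPM, with a log2 fold change of 1.81 (SE 0.34, edgeR adjusted p = 0.0326). Acacb no longer passed when IRE1fl 3 or any single IRE1PKO library was omitted (edgeR adjusted p up to 0.124), nor when low counts were kept (0.0787), while its log2 value stayed between 1.56 and 2.23.

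The carboxylase genes were also set against each other within each library. The log2 ratio of Acaca to Acacb CPM was 0.97, -0.44 and 0.32 in IRE1fl against -0.47, -0.83 and -0.74 in IRE1PKO. All IRE1PKO values were below the IRE1fl values, by a narrow margin to IRE1fl 2. The mean difference was -0.96 (an exact two-sided permutation test gave p = 0.1, the smallest it can give with 3 libraries against 3, and 0.18 after adjustment over 9 such ratios). It ran from -1.325 without IRE1fl 2 to -0.62 without IRE1fl 1.

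Me1 (chromosome 9, 86581371 to 86695953, minus strand) encodes cytosolic malic enzyme, which makes NADPH while returning malate to pyruvate. Me1 had 110.5, 164 and 63.9 CPM in IRE1fl and 486, 376 and 423 CPM in IRE1PKO. The lowest IRE1PKO library was 2.28 times the highest IRE1fl library. Me1 rose from 113 ± 50.3 to 428 ± 55.2 CPM, and its log2 fold change of 1.92 (SE 0.37, edgeR adjusted p = 0.0389) was the highest among the 9 genes. Only 1.09% of all tested genes had a higher log2 fold change. Me1 no longer passed when IRE1fl 1 or any single IRE1PKO library was omitted (edgeR adjusted p up to 0.129), nor when low counts were kept (0.0795), and its log2 value without single libraries was 1.64 to 2.30.

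The supply of acetyl-CoA begins with Slc25a1, the carrier that exports citrate from mitochondria, and Acly, the lyase that cuts citrate into acetyl-CoA and oxaloacetate. Acly (chromosome 11, 100476353 to 100528000, minus strand) had 310.1, 453 and 269.7 CPM in IRE1fl and 676, 613 and 529 CPM in IRE1PKO, and the groups were separated by a ratio of 1.17. Acly rose from 344 ± 96.6 to 606 ± 73.6 CPM, with a log2 fold change of 0.82 (SE 0.19, edgeR adjusted p = 0.0323). Acly no longer passed when any 1 of IRE1fl 1, IRE1fl 3, IRE1PKO 1 and IRE1PKO 2 was omitted (up to 0.119 in edgeR), nor when low counts were kept (0.0588). Slc25a1 (chromosome 16, 17925223 to 17928219, minus strand) had 212, 342 and 241 CPM in IRE1fl and 403, 368 and 291 CPM in IRE1PKO. IRE1fl 2 lay above IRE1PKO 3, so the groups overlapped. The Slc25a1 log2 fold change was 0.42 (SE 0.19, edgeR adjusted p = 0.22). It was 0.64 and passed without IRE1fl 2 (0.0318), and it was 0.28 without IRE1fl 1 (0.381).

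Acss2 (chromosome 2, 155517948 to 155585724, plus strand) encodes the cytosolic synthetase that makes acetyl-CoA from acetate. It had 71.7, 226 and 130.1 CPM in IRE1fl and 398, 401 and 221 CPM in IRE1PKO. IRE1fl 2 exceeded IRE1PKO 3 by a small margin, and the IRE1fl libraries spread over a ratio of 3.15, the widest of the 9 genes. The mean was 143 ± 77.8 CPM in IRE1fl and 339.8 ± 103 CPM in IRE1PKO. The log2 fold change was 1.25 (SE 0.52) and missed the threshold (edgeR adjusted p = 0.236), as it did when any single library was omitted. Acss2 shares 395 exonic bases with Gss on the other strand, a gene with a mean of 2002 counts against 9112.5 for Acss2, and smaller stretches with other genes. Whether the counting used strand is not stated, so reads in that stretch cannot be assigned with certainty.

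Thrsp and Mid1ip1 encode related small proteins, Spot14 and MIG12. MIG12 binds acetyl-CoA carboxylase and promotes its assembly into active polymers, and Spot14 pairs with MIG12. Thrsp is a known target of thyroid hormone and of carbohydrate feeding. Thrsp (chromosome 7, 97412938 to 97417730, minus strand) had 381, 768 and 501 CPM in IRE1fl and 649.6, 755 and 920.4 CPM in IRE1PKO. Only IRE1PKO 3 lay above all IRE1fl libraries. The Thrsp log2 fold change was 0.49 (SE 0.27, edgeR adjusted p = 0.318). It was 0.81 and passed without IRE1fl 2 (0.0265), and it was 0.28 without IRE1fl 1 (0.446). Mid1ip1 (chromosome X, 10715013 to 10719690, plus strand) had 108, 95.7 and 99.3 CPM in IRE1fl and 83.1, 84.3 and 57.9 CPM in IRE1PKO. All IRE1PKO libraries were lower, with IRE1PKO 3 the lowest. The Mid1ip1 mean was 101 ± 6.41 CPM in IRE1fl and 75.1 ± 14.9 CPM in IRE1PKO. The log2 fold change was -0.43 (SE 0.14) and missed the threshold (edgeR adjusted p = 0.0788). Mid1ip1 passed in edgeR when low counts were kept (0.0251) and with replicate number as a block (0.0346), and in the DESeq2 Wald test (0.0317). It passed in none of the fits with 1 library omitted (0.0825 to 0.176), and its log2 value was -0.27 without IRE1PKO 3. Mid1ip1 shares 543 exonic bases with Gm14493 on the other strand, a gene without counts here. Reads in that stretch cannot be assigned with certainty either.

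**Figure D2:**
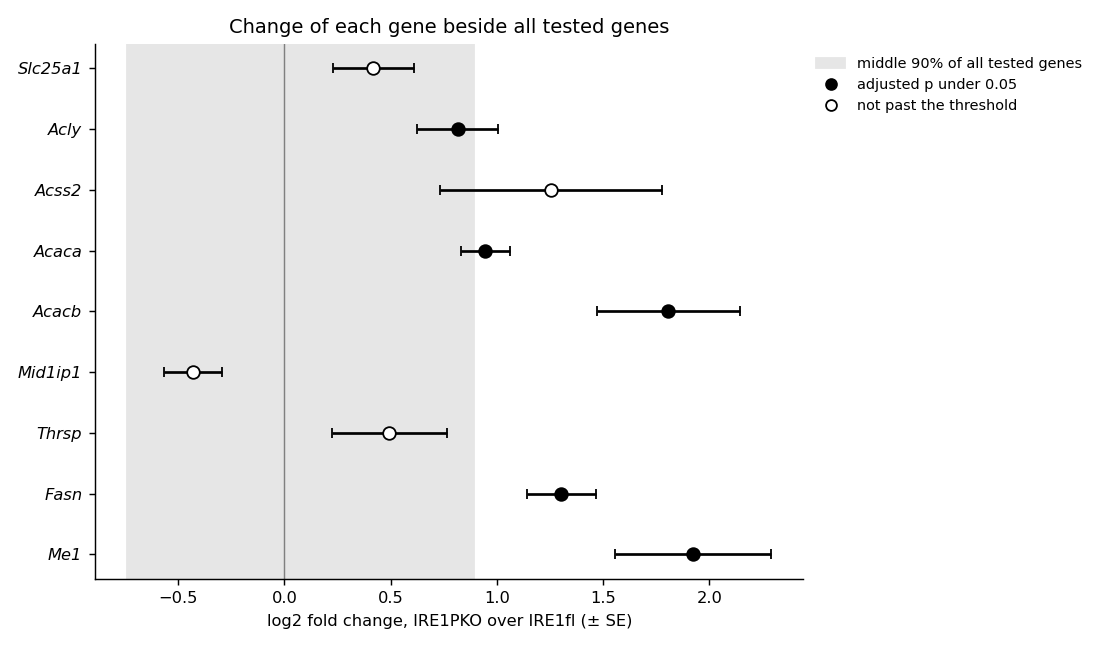
Log2 fold change of IRE1PKO over IRE1fl (horizontal axis) of each gene with its SE, filled where the adjusted p was under 0.05, over a grey band that holds the middle 90% of all tested genes (-0.74 to 0.89). Acss2, Acaca, Acacb, Fasn and Me1 lie to the right of the band, Acly, Slc25a1 and Thrsp inside it on the higher side, and Mid1ip1 inside it on the lower side.

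The genes differed in how close their IRE1fl libraries lay to each other. Acaca and Fasn, with highest-to-lowest ratios of 1.15 and 1.19 in IRE1fl, are the members that passed whichever library was omitted. Mid1ip1 had the lowest IRE1fl ratio, 1.13, and passed in none of those fits. Acacb, Me1, Acss2 and Thrsp had IRE1fl ratios of 2.39, 2.57, 3.15 and 2.02. In IRE1PKO the highest ratio was 1.81, for Acss2. Without IRE1fl 2, the highest IRE1fl library for 7 of the 9 genes, 7 genes passed as higher. Without IRE1PKO 1 or IRE1PKO 2 that number was 2, and without IRE1fl 1, IRE1fl 3 or IRE1PKO 3 it was 3.

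**Figure D3:**
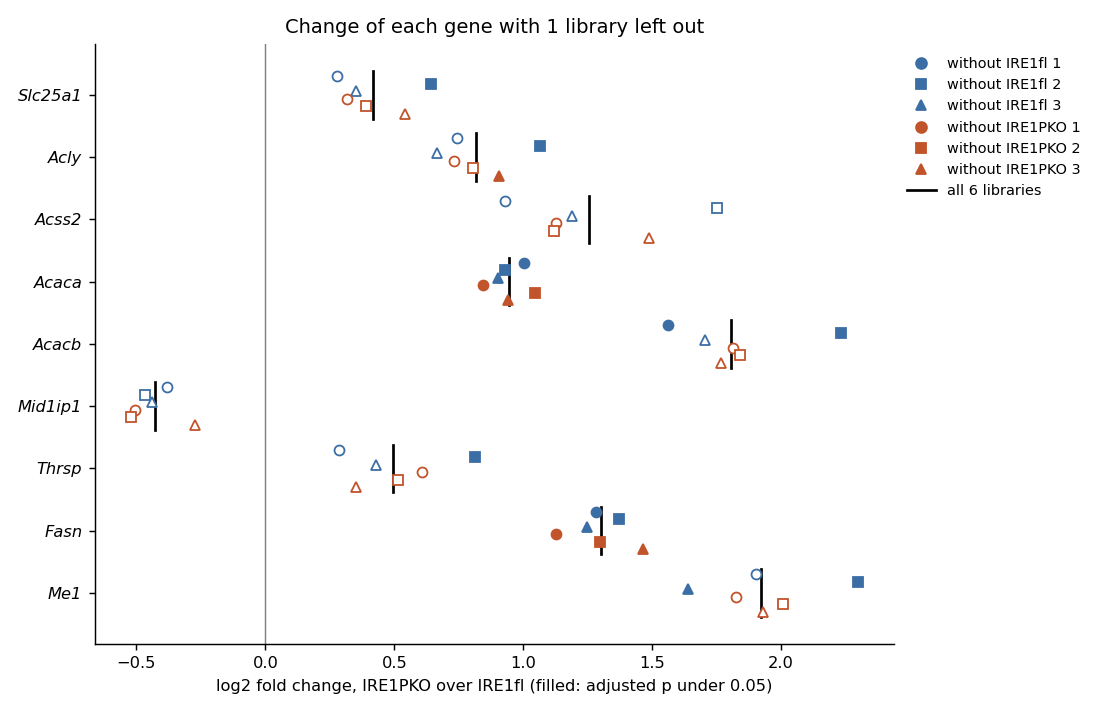
Log2 fold change of each gene with all 6 libraries (black line) and with 1 library left out (symbols, filled where the adjusted p was under 0.05). Fasn and Acaca keep filled symbols throughout, all symbols of a gene stay on its side of 0, and the values without IRE1fl 2 lie farthest to the right for Slc25a1, Acly, Acss2, Acacb, Thrsp and Me1.

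Ratios to Fasn within each library showed how the proportions of the set differed. The log2 ratio of Mid1ip1 to Fasn was -2.51, -2.85 and -2.55 in IRE1fl and -4.53, -4.21 and -4.36 in IRE1PKO. It was lower in every IRE1PKO library, by a mean of -1.73, the largest difference among the 8 ratios to Fasn. Slc25a1 and Acly also had lower ratios to Fasn in every IRE1PKO library, with mean differences of -0.84 and -0.44, and Me1 had higher ones, with a mean difference of 0.74. The Me1 ratios were close at the edge, with -2.06 in IRE1PKO 2 and -2.07 in IRE1fl 2, and the difference was 0.44 without IRE1fl 3. The Acly difference was -0.29 without IRE1fl 2. For each of these 4 genes the exact two-sided permutation test gave p = 0.1, the smallest possible, and 0.18 after adjustment over the 9 ratios. The ratios of Acss2, Acaca, Acacb and Thrsp to Fasn overlapped between the genotypes (exact permutation p of 0.9, 0.3, 0.3 and 0.2).

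**Figure D4:**
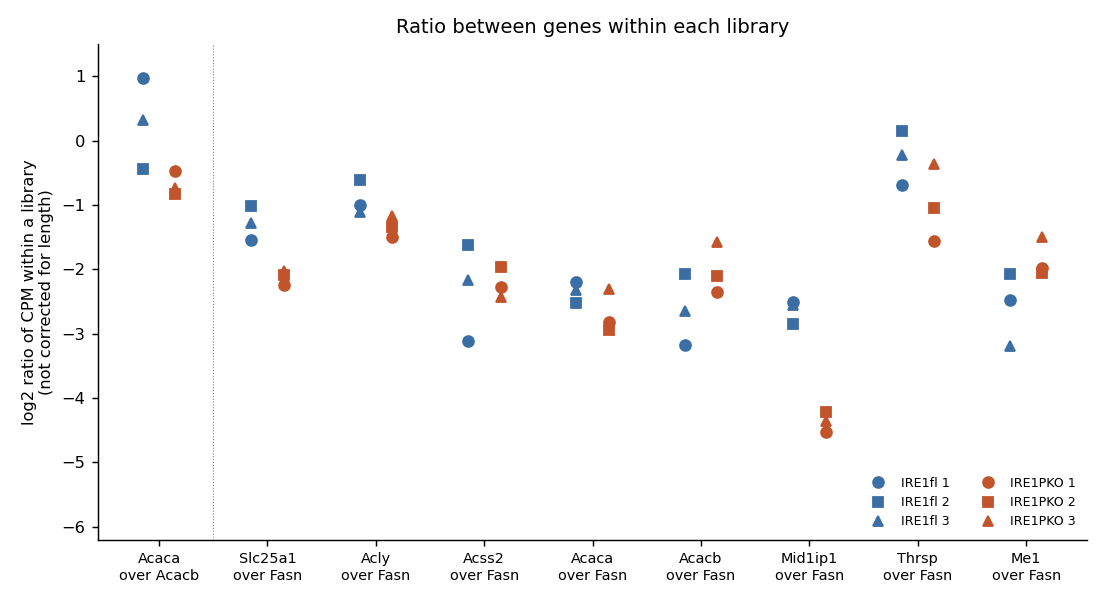
Log2 ratio of CPM between genes within each library (vertical axis, not corrected for gene length) for Acaca over Acacb and for each other gene over Fasn, in IRE1fl (blue) and IRE1PKO (orange). The Mid1ip1 ratios lie near -2.6 in IRE1fl and near -4.4 in IRE1PKO, and the Acss2 ratios overlap.

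Levels between genes were compared per length, as CPM per kilobase of the longest coding transcript in the GENCODE M21 basic set. On this scale Thrsp was the highest in IRE1fl at 431 ± 155, followed by Slc25a1 at 159 ± 40.8, Acly at 77.8 ± 21.8 and Fasn at 62.8 ± 5.56 (SD, n = 3). Mid1ip1, Acss2 and Me1 followed at 49.98 ± 3.17, 48.6 ± 26.5 and 34.3 ± 15.3, and Acaca and Acacb were the lowest at 13.0 ± 0.968 and 12.3 ± 5.63. In that order Acly and Fasn, Mid1ip1 and Acss2, Acss2 and Me1, and Acaca and Acacb had overlapping libraries. In IRE1PKO the order was Thrsp at 607 ± 107, Slc25a1 at 213 ± 34.7, Fasn at 155 ± 36.1, Acly at 137 ± 16.6, Me1 at 130.1 ± 16.8, Acss2 at 116 ± 35.1, Acacb at 43.2 ± 2.24, Mid1ip1 at 37.1 ± 7.36 and Acaca at 25.0 ± 3.55. There each neighbouring pair overlapped except Thrsp and Slc25a1, Acss2 and Acacb, and Mid1ip1 and Acaca. The Acacb level per kilobase lay below that of Mid1ip1 in every IRE1fl library, and the ranges of these genes overlapped in IRE1PKO. Lengths by the union of all exons lowered the Acss2 level to 14.0 in IRE1fl, below that of Me1, and put Acacb (11.3) above Acaca (7.24). In IRE1PKO they lowered Acss2 to 33.4, below Acacb (39.4) and Mid1ip1 (35.3).

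The 5 genes, outside the set, whose library-by-library pattern lay closest to that of Fasn were H2-K2, Vegfb, Plk3, Gpam and Ucp2. Likeness was the root mean square difference of centred log2 CPM over the 6 libraries among 7838 genes with a mean of at least 10 CPM. The differences were 0.06, 0.10, 0.13, 0.14 and 0.17 on the log2 scale, and those of the core genes were 0.27 for Acaca, 0.28 for Acly and 0.45 to 0.87 for the rest. Gpam, the acyltransferase that begins glycerolipid synthesis, had 302, 346 and 304 CPM in IRE1fl and 744, 747 and 612 CPM in IRE1PKO. H2-K2 is a class I histocompatibility gene with close copies, so its reads may be shared among them. With a floor of 1 CPM, 3 of the 5 genes were still among the nearest 5.

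Other genes of the pathway were taken from a list of 83 genes in 7 roles, of which 81 were tested. Of these 16 rose and 2 fell, with a median of 0.06, and 63 did not pass. Among all tested genes 5.68% rose and 3.86% fell, the shares to set beside these counts and those by role below. Without IRE1fl 3 or IRE1PKO 1 the number of the list that rose was 10. The split of calls over all tested genes was 59.5% higher, and 73.4% with library totals as the only scaling, under which 20 genes of the list rose and 1 fell.

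No transcription regulator of the pathway passed among 14 tested (edgeR). At an unadjusted p under 0.05, 2 were higher and 5 lower, and DESeq2 and limma-voom called 2 and 1 higher and none lower. In edgeR 1 was higher without IRE1fl 1, without IRE1PKO 3 and with library totals as the only scaling. In all libraries 2 regulators lay higher without overlap and 5 lower, beside 16.0% and 15.0% of all tested genes. The 2 higher ones were Insig1 and Insig2, named after their values were seen. Insig1 had 176, 271 and 225 CPM in IRE1fl and 618, 500 and 308 CPM in IRE1PKO. Its log2 fold change was 1.09 (SE 0.29, edgeR adjusted p = 0.0742), and that of Insig2 was 0.64 (SE 0.22, 0.135). Srebf1, which encodes SREBP1, had 934, 495 and 561 CPM in IRE1fl and 373, 498 and 415 CPM in IRE1PKO, a log2 fold change of -0.63 (SE 0.25, edgeR adjusted p = 0.178), and -0.30 without IRE1fl 1. The table does not separate the 1a and 1c forms of SREBP1. Mlxipl, which encodes ChREBP, had a log2 fold change of -0.32 (SE 0.12, edgeR adjusted p = 0.108) and passed only without IRE1PKO 3. The highest Srebf1 value was in IRE1fl 1. Among IRE1fl libraries it had the lowest Slc25a1, Acss2, Acacb and Thrsp, the highest Acaca and Mid1ip1, and Fasn, Acly and Me1 in between.

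Among 17 tested genes that supply citrate, acetyl-CoA and carbon, 7 rose and 1 fell, with a median of 0.38, and 4 rose when IRE1fl 3 was omitted. Dlat, a subunit of pyruvate dehydrogenase, rose from 54.3 ± 5.46 to 93.2 ± 2.60 CPM, with a log2 value of 0.78 (SE 0.09). Cs, the citrate synthase, rose by 0.62 (SE 0.09) and Pcx, the pyruvate carboxylase that makes oxaloacetate, by 0.60 (SE 0.11). These 3 genes passed without each library in turn. The gene that fell was Slc13a5, a citrate importer of the plasma membrane, named after its values were seen, which went from 2.96 ± 0.739 to 0.973 ± 0.252 CPM.

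Of 10 tested genes of NADPH supply, 2 rose and none fell (edgeR; 4 and 1 at an unadjusted p under 0.05, 3 and 0 by DESeq2, 2 and 0 by limma-voom). Pgd, a dehydrogenase of the pentose phosphate pathway, rose from 39.9 ± 4.96 to 77.7 ± 12.0 CPM, with a log2 value of 0.96 (SE 0.13), and Tkt, the transketolase of that pathway, rose by 0.76 (SE 0.11). Both passed without each library in turn. G6pdx, which commits glucose 6-phosphate to the pathway, had 4.14 ± 1.21 and 6.73 ± 1.31 CPM and a log2 value of 0.70 (SE 0.23), short of the threshold (edgeR adjusted p = 0.0814).

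Of 14 tested elongation and desaturation genes, 5 rose and none fell (edgeR; 9 and 0 at an unadjusted p under 0.05, 8 and 0 by DESeq2, 6 and 0 by limma-voom), with a median of 0.57. Only 2 rose when IRE1fl 3 or IRE1PKO 1 was omitted. Elovl5, an elongase of polyunsaturated chains, rose by 1.69 (SE 0.16) and Hsd17b12, the ketoacyl reductase of elongation, by 0.69 (SE 0.11). Elovl6, which extends palmitate, rose by 1.20 (SE 0.20), and Scd1, the desaturase that makes oleate, rose from 7041 ± 2637 to 17484 ± 2853 CPM, with a log2 value of 1.31 (SE 0.26). Neither Elovl6 nor Scd1 passed when any 1 of IRE1fl 3, IRE1PKO 1 and IRE1PKO 3 was omitted (edgeR adjusted p up to 0.0652). Scd1 also did not pass when low counts were kept, and Elovl6 did not with replicate number as a block.

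Among 7 genes of cofactor attachment and malonyl-CoA turnover, Slc5a6 alone passed (edgeR). When IRE1fl 2, IRE1fl 3 or IRE1PKO 3 was omitted, 2 genes did. The number was also 2 when low counts were kept, with library totals as the only scaling, at a threshold of 0.1 and in DESeq2. Slc5a6 encodes a carrier of biotin and pantothenate, the vitamins behind the prosthetic groups of acetyl-CoA carboxylase and fatty acid synthase. Slc5a6 rose from 23.3 ± 1.47 to 40.4 ± 2.49 CPM, with a log2 value of 0.79 (SE 0.09), and passed without each library in turn. Of 10 genes of AMP-activated kinase and its upstream kinases, which restrain acetyl-CoA carboxylase by phosphorylation, Prkab2 rose by 0.97 (SE 0.23) from 2.05 ± 0.469 CPM and Stk11 fell by 0.33 (SE 0.08). Prkab2 passed only with all libraries or with IRE1fl 2 omitted (edgeR adjusted p otherwise up to 0.0897). Stk11 no longer passed when any 1 of IRE1fl 2, IRE1fl 3, IRE1PKO 1 and IRE1PKO 2 was omitted (at most 0.0923) or with library totals as the only scaling. None of the 9 tested genes of the separate mitochondrial (type II) pathway passed in edgeR, DESeq2 or limma-voom, or at an unadjusted p under 0.05 (0 in each), and their changes lay between -0.22 and 0.17.

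**Figure D5:**
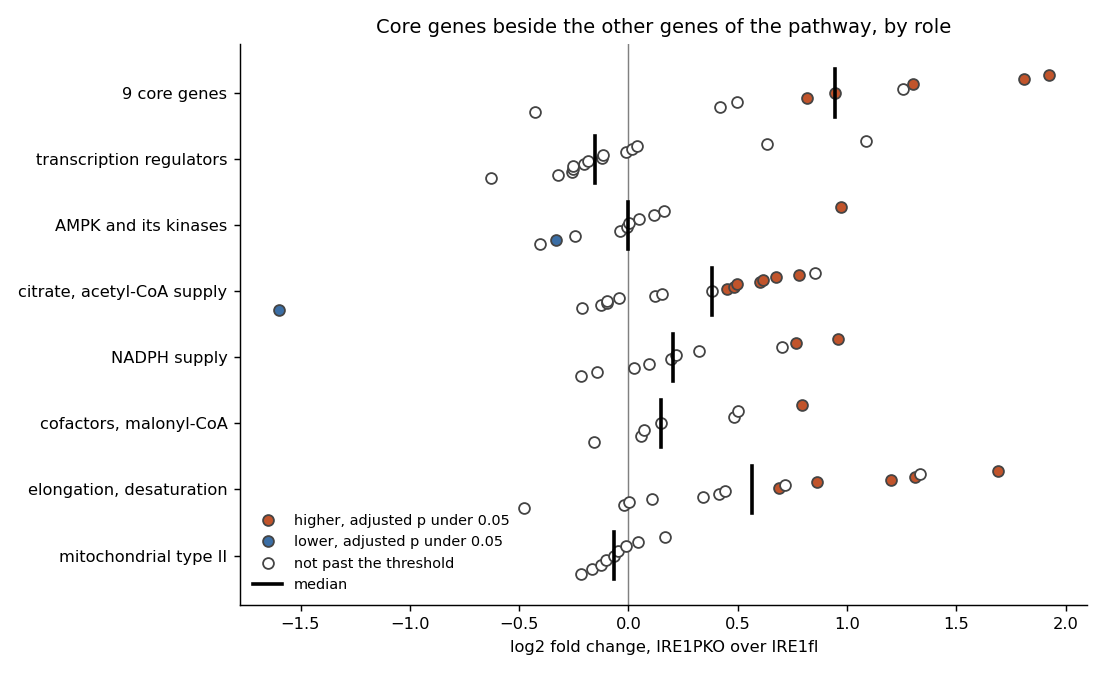
Log2 fold change of IRE1PKO over IRE1fl (horizontal axis) of the 9 core genes and of 81 other pathway genes by role, coloured where the adjusted p was under 0.05, with the median of each role as a black line. The core genes (median 0.95) and the elongation and desaturation genes (0.57) lie highest, and the mitochondrial type II genes cluster around 0.

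Markers of other cell types that make or could carry these transcripts were read in the same libraries. The shares to set beside the marker counts are 5.68% higher and 3.86% lower among all tested genes. Adipocytes are rich in the same enzymes. Of 8 adipocyte markers 7 were in the table and 3 were tested, Lep was at 0 in all libraries and Adipoq had a mean of 0.141 CPM in IRE1fl and 0.0171 CPM in IRE1PKO. The summed adipocyte level was 28.1 to 33.7 CPM in IRE1fl and 27.2 to 37.0 CPM in IRE1PKO, while single members moved in opposite directions. Adrb3 fell from 20.6 ± 0.789 to 7.89 ± 2.15 CPM, and Fabp4 rose from 7.06 ± 2.20 to 12.2 ± 1.41 CPM. Cfd, the other tested marker, had 2.39 ± 1.70 and 10.6 ± 4.20 CPM without overlap and did not pass (edgeR adjusted p = 0.0787), and DESeq2 and limma-voom each called 2 adipocyte markers higher. When any library other than IRE1fl 1 was omitted, 0 adipocyte markers rose in edgeR, and 2 did without IRE1fl 1. Of 8 stellate cell markers 6 rose, with sums of 147 to 204 CPM and 322 to 328 CPM, and 5 or 6 rose whichever library was omitted. Of 8 endothelial markers 4 rose, with sums of 198 to 224 CPM and 240.2 to 329 CPM, but 1 did when IRE1fl 2 or IRE1PKO 2 was omitted and 0 when IRE1fl 3 or IRE1PKO 1 was (edgeR). No stellate or endothelial marker was at 0 in all libraries. Of 10 hepatocyte markers 3 fell and 7 did not pass. The part of these shifts in the changes of the core genes was not tested. Of 8 macrophage and Kupffer cell markers Marco fell, by 0.84, and the other 7 had positive log2 values of 0.16 to 0.54 that did not pass. The sums of all 8 were 313 to 437 CPM in IRE1fl and 379.6 to 533 CPM in IRE1PKO, and 1 marker was called higher by DESeq2. Of 5 tested cholangiocyte markers 1 rose and 1 fell, and of 8 T, B and NK cell markers 1 fell. Of 8 acinar markers Prss2, Pnlip, Ctrb1 and Amy2a5 were at 0, and the 1 that was tested, Cela1, fell, with marker sums of 29.1 to 43.3 CPM and 7.85 to 11.2 CPM.

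The sequences ahead of the transcription starts were examined because 5 of the 9 genes rose in the same livers. RefSeq (GRCm38.p6, the build also called mm10) gave 10 start sites for the 9 genes, with 2 for Me1, and the 250 bases before each start were searched on both strands. The windows of Acaca and Acacb begin at starts 65766 and 18983 bases inside the annotated genes, so their outermost promoters are not covered. The 4 windows shown hold no annotated exon of their own gene, although that of Mid1ip1 precedes a start 2352 bases inside the annotated gene. They are those of Fasn and Acly, which rose, Slc25a1, which did not pass, and Mid1ip1, which had lower values. Capitals mark matches, on either strand, to CCAAT (bound by NF-Y), GGGCGG (Sp1), CACGTG (an E-box) and TCANNCCAC (a loose form of the SREBP site). All are written 5′ to 3′ on the strand of the gene.
Fasn, chr11:120824548-120824797 (minus strand): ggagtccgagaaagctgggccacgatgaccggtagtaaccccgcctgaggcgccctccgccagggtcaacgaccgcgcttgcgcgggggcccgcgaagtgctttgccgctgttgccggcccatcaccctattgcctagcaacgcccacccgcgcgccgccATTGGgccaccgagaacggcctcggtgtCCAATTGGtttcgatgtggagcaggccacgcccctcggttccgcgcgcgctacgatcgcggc
Acly, chr11:100528001-100528250 (minus strand): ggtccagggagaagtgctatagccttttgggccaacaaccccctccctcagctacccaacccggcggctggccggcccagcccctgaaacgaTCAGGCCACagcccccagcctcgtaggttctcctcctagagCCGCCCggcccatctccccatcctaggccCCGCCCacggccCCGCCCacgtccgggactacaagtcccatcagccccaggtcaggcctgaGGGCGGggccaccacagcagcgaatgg
Slc25a1, chr16:17928220-17928469 (minus strand): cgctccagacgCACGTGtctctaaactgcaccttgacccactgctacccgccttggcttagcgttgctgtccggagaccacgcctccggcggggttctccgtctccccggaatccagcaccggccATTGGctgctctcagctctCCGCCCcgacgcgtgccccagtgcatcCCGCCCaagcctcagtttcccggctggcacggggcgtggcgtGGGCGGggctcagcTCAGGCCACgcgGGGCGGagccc
Mid1ip1, chrX:10717115-10717364 (plus strand): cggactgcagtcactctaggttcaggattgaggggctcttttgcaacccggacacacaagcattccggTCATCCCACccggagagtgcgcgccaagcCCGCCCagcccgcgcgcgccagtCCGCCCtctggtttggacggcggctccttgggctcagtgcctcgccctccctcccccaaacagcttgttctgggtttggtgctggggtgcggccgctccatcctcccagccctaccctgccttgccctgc

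The CCAAT letters occurred ahead of 6 of the 9 genes, Fasn, Slc25a1, Acss2, Acacb, Thrsp and Me1, and in 33.8% of 32817 such windows of all genes. Member counts here are by gene, with 2 windows for Me1, and the shares are by window. The Me1 match was only ahead of its inner start, 8676 bases inside the annotated gene. The Thrsp and Acss2 matches lay in annotated exon of their own gene, which fills 180 and 95 bases of these windows. The Fasn window held 3 matches, at 90, 62 and 59 bases before the start, the last pair overlapping. GGGCGG occurred ahead of 5 genes (32.7% of all windows), with 4 matches each for Acly, Slc25a1 and Acss2. TCANNCCAC occurred ahead of 4 genes, Acly, Slc25a1, Acacb and Mid1ip1 (3.52% of all windows). These include genes that rose, Acly and Acacb, a gene that did not pass, Slc25a1, and the gene with lower values, Mid1ip1. Matches of Acaca, Acacb and Mid1ip1, to any motif, were ahead of starts 65766, 18983 and 2352 bases inside the annotated genes. The stricter form TCACNCCAC was in no member's window (1.05% of all windows). CACGTG was ahead of Slc25a1 alone (6.02%), and AGGTCA, a nuclear receptor motif, ahead of Acly alone (14.0%). The looser CANNTG, which covers CACGTG, was ahead of 6 genes (66.2%), for Me1 only at its inner start. The direct repeat bound by LXR and the paired E-box motif of ChREBP were in no member's window, and in 0.0152% and 0.28% of all windows. A match describes letters and not a bound site.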

How the data were processed

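Gene counts of 6 mouse liver libraries (3 IRE1fl, 3 IRE1PKO) were used as the authors deposited them, as raw counts per gene symbol with 1 column per library. The submitters' processing notes name mm10 as the build, while no aligner, counting program or annotation is given in the sources used here. Even counts from 1 to 8 were 2.58 to 3.19 times as many as odd ones, so both mates of a pair may have been counted. No library was a copy of another (chi-square per gene of 28.6 to 63.4 within groups).

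Low counts were removed with filterByExpr, counts were scaled by TMM, and genotypes were compared with edgeR 4.0.16 (R 4.3.3; robust quasi-likelihood test, two-sided, Benjamini-Hochberg over 14954 genes). Log2 CPM used a prior count of 2. DESeq2 1.42.0, limma 3.58.1 (voom) and other settings served as alternatives, and halved counts were added after seeing the data. The test was checked on simulated counts. Gene positions and lengths come from GENCODE M21 (GRCm38), promoters from RefSeq (GRCm38.p6). The members and lists were chosen with earlier results of these data known. Named were all 9 members, up to 3 genes per pathway role with the smallest p past the threshold, Srebf1, Mlxipl, G6pdx and Scd1, markers at 0, and the 5 genes closest to Fasn. Other genes were named after their values were seen.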

Additional observations from a re-analysis of the deposited data

How the results depend on the processing

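Each of the 9 genes kept the sign of its log2 fold change under all alternatives run, and Fasn and Acaca passed in each of them. The number of core genes that rose was 5, but 2 with no filter on low counts and 3 with the replicate block. The number that fell was 0, but 1 (Mid1ip1) with no filter, with the replicate block, in the DESeq2 Wald test and at a threshold of 0.1. The cause was not tested. With single libraries left out, the numbers ran from 2 to 7 higher, with 0 lower throughout, while the other pathway genes ran from 10 to 17 higher and 1 to 3 lower, and all tested genes from 398 to 868 higher and 255 to 616 lower. Fewer libraries enter those fits. At a threshold of 0.1, 4 other pathway genes fell, and 1299 of all tested genes were higher and 992 lower. With library totals as the only scaling 1 other pathway gene fell. Whether replicate numbers pair the libraries could not be told from correlations of deviations from the group means. These were 0.0712, -0.0216 and 0.101 for equal numbers and -0.107 to 0.0346 for unequal ones. Not every library correlated best with its own number. With the replicate block 3 core genes rose and 1 fell, the calls of Acacb and Me1 being lost (edgeR adjusted p of 0.063 and 0.102). Under that block 1051 of all tested genes were higher and 814 lower. Acss2, with the widest spread in IRE1fl, passed in none of the settings run.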
